A study of Homo sapiens with 19 samples.

Results

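The gene expression of human embryonic stem cells (hESCs) was compared between 2 windows in the first days of their differentiation into brown adipocytes (BAs), on 6 arrays that share a slide. The late window held the arrays labelled 32, 36 and 42 h after BA induction and the early window those labelled 14, 16 and 20 h, so the comparison used 6 of the 19 arrays of the series, and all 6 lay on the second of its slides. The 24 and 28 h arrays of the same slide were kept out of the test and show the course between. All arrays were of the hESC line KhES-3, harvested once at each time point after transfer to low-attachment dishes in a serum-free medium with IGF-II, BMP4, VEGFA, KITLG, FLT3LG and IL-6, and both windows carried this treatment alike. The labels state that the stem cells had been grown on irradiated mouse embryonic fibroblasts, whereas the study's methods describe a feeder-free culture. There was 1 array per time point, so the 3 arrays of a window are different times and not replicates, no separate culture stands behind a second value, and the p-values measure only the spread among these arrays. Whether changed signals come from changed numbers of cells of a type or from changed RNA per cell cannot be told apart in such bulk RNA.

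A pluripotent stem cell keeps itself undifferentiated through POU5F1, SOX2 and NANOG and through growth factor signals, among them NODAL, a ligand of the TGFB superfamily that activates SMAD2 and SMAD3 and induces its own inhibitors LEFTY1 and LEFTY2. Proliferating stem cells also make DNA and membranes at a high rate. The genes of DNA replication are switched on by E2F factors as cells enter S phase, and those of cholesterol synthesis are switched on by SREBF2 when membranes hold little sterol. Cells with little oxygen stabilise HIF1A, which raises glucose transporters, glycolytic enzymes and the prolyl hydroxylases that act on collagen or on HIF1A itself.

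Each array measured 50683 probes as Cy3 intensities, which were scaled so that the 75th percentile of every array lay at 725 (before scaling it lay between 633 and 800.3 on this slide). The share of probes well above background was 49.5%, 52.0% and 55.9% on the early arrays, in order of time, and 60.7% to 62.1% on the late ones. The lower limit of detection, taken as the 1st percentile of the detected signals, fell from 86.5 at 14 h and 66.1 at 16 h to 47.3 at 20 h and 31.8 to 37.3 in the late window. A dim gene therefore could pass the filter more readily through the late window. The early arrays lay in the first row of the slide with the 24 h array, and the late arrays lay in the second row with the 28 h array, so that row and window cannot be told apart. The added spike-in RNA had a mean scaled log2 signal of 14.20 at 32 h, against 13.55 to 13.82 on the other 5 arrays.

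**Figure D1:**
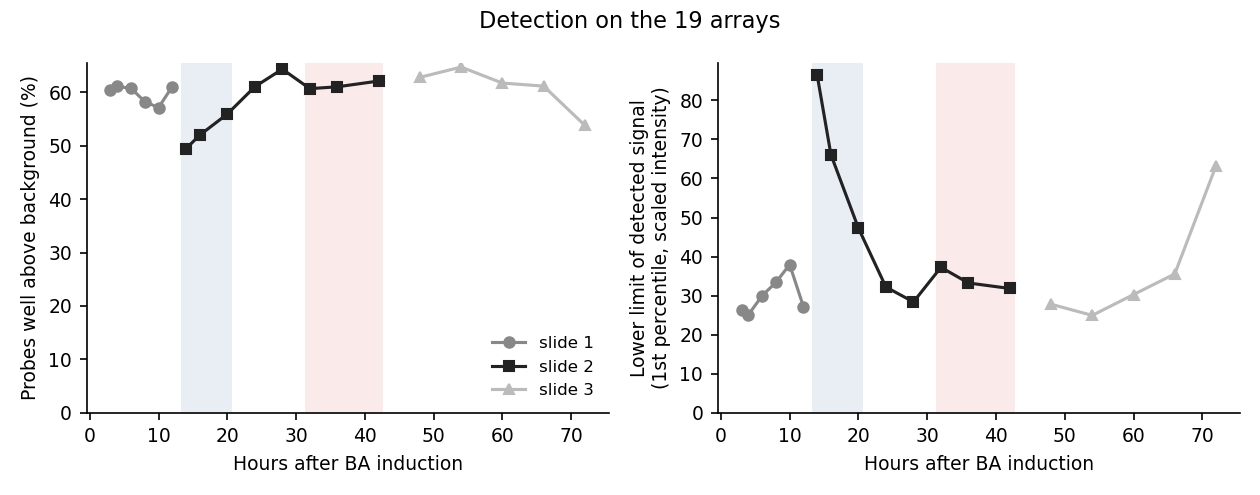
Detection on the 19 arrays against hours after BA induction (left, percent of probes well above background, right, 1st percentile of the detected signals in scaled intensity units). Blue shading marks the early and red shading the late window, and the 14 h array has the lowest share detected on the second slide (49.5%) and the highest limit (86.5).

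Some signals on the early arrays were raised in patches of the array surface. The median shift of the 20 spots around a spot reached 0.5 on the log2 scale for 3225 of 61657 spots on the 14 h array, for 1714 and 509 on the next 2, but for only 60 to 76 spots on each late array. Of 29194 probes tested, 85 were at least 4-fold brighter at 14 h than on each of the other 7 arrays of the slide, and 67 of these had such neighbours. NTN1, a netrin that guides axons and was chosen here after its values were seen, had a signal of 52591 at 14 h and of 399 to 1031 on the other 7 arrays. GEMIN7, which belongs to the SMN complex and was also picked afterwards, was printed 3 rows and 1 column away and had 29225 at 14 h against 5078 to 7121 elsewhere. Leaving out all 2792 tested probes with such a neighbourhood on any of the 6 arrays, a choice made after the data were seen, gave 979 probes higher and 452 lower in the comparison that follows, against 945 and 453 with all probes.

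The question was which genes moved between the windows. With limma, 945 of 29194 probes (3.24%) were higher in the late window at an adjusted p under 0.05 and 453 (1.55%) were lower, while 8282 had an unadjusted p under 0.05. Taking 1 probe per gene, 442 of 15819 genes (2.79%) rose, with a median log2 difference of 0.85, and 299 (1.89%) fell, with a median of -0.62. At least 2-fold, 159 rose and 31 fell, of which 60 and 27 were detected on all 6 arrays, and scaled to the spike-in RNA 110 rose and 202 fell at least 2-fold. All 3 late arrays lay above all 3 early arrays for 3042 genes (19.2%) and below them for 2990 (18.9%), and the median log2 difference over all genes tested was 0.00. Of the genes that rose, 170 were tested only because the late arrays detected them, so the balance between rises and falls is partly set by detection. Among the 14145 genes detected on all 6 arrays, 272 rose and 292 fell. With 1 array left out of this fit at a time, nearly all calls were lost for every array but that of 20 h. Without the 14, 32, 36 or 42 h array limma called no probe, although 6220 to 7926 probes still had an unadjusted p under 0.05, and without the 16 h array it called 4 higher and 5 lower. Without the 20 h array 1261 probes were higher and 379 lower. Scaled to the array median, 612 probes rose and 666 fell, and scaled to the spike-in RNA 315 rose and 655 fell, so the share of called probes that rose went from 67.6% to 47.9% and 32.5%. The spike-in RNA moved the median of all probes to -0.25, and every direction in the text is that against the 75th percentile.

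**Figure D2:**
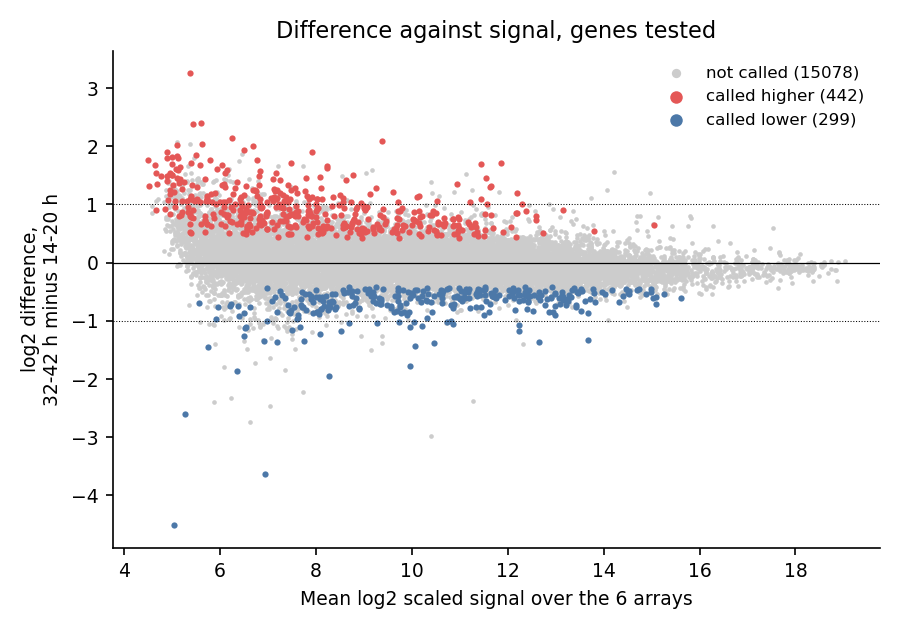
Log2 difference (late minus early window) against the mean log2 scaled signal of the 6 arrays for the 15819 genes tested. Red points are the 442 genes that rose, blue points the 299 that fell and grey points the others, dotted lines mark 2-fold, and the rises crowd at low signals, where the early arrays had the higher limit.

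Of 24 genes of cholesterol synthesis and its regulators, all detected on all 6 arrays, 10 fell and none rose, and the late arrays lay below all early ones for 17 genes and above them for 1. Of all genes tested, 1.89% fell and 2.79% rose, and 18.9% lay below and 19.2% above without overlap. The median log2 difference of the list was -0.48, against 0.00 for all genes. MVK, the kinase that acts on mevalonate, had signals of 6849.6, 8365 and 5844 at 14, 16 and 20 h and of 3658, 3452 and 2871 at 32, 36 and 42 h. The windows did not overlap, and the log2 difference was -1.07 (SE 0.163, limma adjusted p = 0.0333). It had already come down to 4266 and 3848 at 24 and 28 h.
Genes of steps before and after mevalonate were among the 10. HMGCS1, an enzyme early in the pathway, had 3694, 4297 and 3901 early and 2044, 2557 and 1829 late, a log2 difference of -0.90 (SE 0.144, limma adjusted p = 0.0361). SQLE, which oxidises squalene on the way to the sterol ring, had 11281, 12548 and 9689 early and 5667, 6465 and 5763 late. In both genes the lowest early array was brighter than every late one. The isomerase IDI1 fell by 0.84 on the log2 scale, DHCR7 by 0.68, the squalene synthase FDFT1 by 0.62 and CYP51A1 by 0.47. Of the members, 3 lay the other way without passing the test, and among them SC5D, which acts late in the pathway, had 109.9, 124 and 130.2 early and 166, 189.8 and 122 late, with an overlap at 42 h and an adjusted p of 0.223. SREBF2, the factor that drives the pathway, was among the members that did not pass. FDFT1 had neighbouring spots raised at 14 h, and without probes of that kind 9 members fell. No member passed in limma when the 14, 16, 32, 36 or 42 h array was left out. The same held with 20 and 24 h as the early window, and without both the 14 and 16 h arrays in a fit over 17 arrays. The median of the list stayed between -0.35 and -0.76 under every alternative for which it was computed, these included.
The promoters of the list were searched for short words. The window of 250 bases before a RefSeq start (GRCh38.p14) was found for 18 of the 24 genes and for 27305 genes in all. Those 27305 genes were not limited to genes detected on the arrays, unlike the list. A gene counted if any of its listed starts had a match on either strand. CCAAT, the word bound by NF-Y, stood in 16 of the 18 windows (88.9%), against 37.0% of all genes, and in 4 of the 5 called members that had a window. The sterol element TCACNCCAC, where N is any base, stood in 1 of 18 (5.56%), that of SREBF2, against 1.09% of all genes, and in none of those 5. MVK (chr12:109573544-109573793, plus strand), HMGCS1 (chr5:43313413-43313662, minus strand) and DHCR7 (chr11:71448394-71448643, minus strand) are shown because all 3 genes fell and hold the word, which is in capitals here as CCAAT or its other strand ATTGG.
MVK: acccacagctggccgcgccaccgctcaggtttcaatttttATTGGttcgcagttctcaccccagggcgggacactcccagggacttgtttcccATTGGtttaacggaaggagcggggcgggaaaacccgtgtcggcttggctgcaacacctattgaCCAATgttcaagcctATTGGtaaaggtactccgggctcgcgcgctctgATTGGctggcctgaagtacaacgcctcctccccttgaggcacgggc
HMGCS1: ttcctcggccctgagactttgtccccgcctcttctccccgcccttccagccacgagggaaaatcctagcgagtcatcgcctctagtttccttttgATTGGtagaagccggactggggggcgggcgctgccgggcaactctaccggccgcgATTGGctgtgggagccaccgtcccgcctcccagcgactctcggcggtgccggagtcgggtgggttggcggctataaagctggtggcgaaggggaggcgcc
DHCR7: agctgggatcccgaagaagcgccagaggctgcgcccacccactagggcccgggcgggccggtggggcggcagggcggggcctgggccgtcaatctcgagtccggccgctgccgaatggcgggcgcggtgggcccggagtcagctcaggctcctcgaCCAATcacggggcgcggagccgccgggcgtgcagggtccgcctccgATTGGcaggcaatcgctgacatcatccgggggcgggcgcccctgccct
The word occurs 5 times in the MVK window, between 210 and 46 bases before the start, and 2 times in each of the others. A match is a description of the letters and not a bound site.

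Of 32 genes of DNA replication and the entry into S phase, all were tested and 31 were detected on all 6 arrays. In this list 11 fell and none rose, against 1.89% and 2.79% of all genes. Without overlap, 24 lay lower on the late arrays and 1 higher, against 18.9% and 19.2% of all genes. The median log2 difference of those detected on all 6 arrays was -0.42. RRM2, the subunit that sets the activity of ribonucleotide reductase, had 1035, 1293 and 894 early and 526, 647 and 599.7 late, and its log2 difference of -0.85 (SE 0.159, limma adjusted p = 0.0437) was the largest in the list. The windows did not overlap.
The helicase that unwinds DNA at the fork was represented by its MCM subunits and their partners. MCM5 had 26777, 27329.7 and 23221 early and 16517, 15387 and 16497 late, a log2 difference of -0.67 (SE 0.1, limma adjusted p = 0.0326). MCM4 and MCM2 fell by 0.53 and 0.50 on the log2 scale, and CDC45 and GINS2, which complete the active helicase, fell by 0.60 and 0.57. MCM3, MCM6 and MCM7 (log2 differences -0.43, -0.26 and -0.52) and GINS1 (-0.35) did not pass. POLA1, the catalytic subunit of the polymerase that starts each strand, fell by 0.61 and CHAF1B, which loads histones on new DNA, by 0.44. The activator E2F1 had 2652, 2777 and 2239.9 early and 1677, 1486 and 1807 late, with no overlap and a log2 difference of -0.62 (SE 0.125, adjusted p = 0.0472), and the late-acting repressor E2F8 fell by 0.59. PCNA, the sliding clamp, had 20981, 21912 and 15808 early and 11462, 11018 and 15561 late and did not pass (adjusted p = 0.0915). CCND2, a cyclin of G1, lay the other way at 0.52 on the log2 scale with an adjusted p of 0.115. GINS2 had a spot with shifted neighbours, and without probes of that kind 10 members fell. None passed in limma under the same left-out arrays and windows as for the cholesterol genes.
Mitosis genes did not move as a list. Of 34 tested, 1 fell and none rose, next to 1.89% and 2.79% of all genes. Without overlap, 4 lay below and 1 above, against 18.9% and 19.2% of all genes. The median log2 difference was 0.01, and relative to the early window the list stood at 0.01, 0.23 and -0.19 at 32, 36 and 42 h. The gene that fell was CENPE, a kinesin of the kinetochore, with 2379.8, 2586 and 2311 early and 1471, 1634 and 1350.1 late (log2 difference -0.71, SE 0.106, limma adjusted p = 0.0328). Whether the replication and mitosis lists differ was not tested.
In the promoter windows, an E2F word (TTTCCCGC or TTTGGCGC on either strand) stood in 11 of 25 replication genes with a window (44.0%), in 2 of 29 mitosis genes (6.90%) and in 2.36% of all genes. Among the called members with a window it stood in 3 of 7, GINS2 (chr16:85688955-85689204, minus strand), POLA1 (chrX:24693668-24693917, plus strand) and E2F1 (chr20:33686386-33686635, minus strand), whose windows are given for that reason with the word in capitals.
GINS2: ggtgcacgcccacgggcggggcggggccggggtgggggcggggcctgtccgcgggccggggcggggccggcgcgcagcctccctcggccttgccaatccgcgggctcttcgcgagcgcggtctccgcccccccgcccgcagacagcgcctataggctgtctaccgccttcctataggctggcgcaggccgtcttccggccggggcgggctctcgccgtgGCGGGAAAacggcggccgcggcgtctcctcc
POLA1: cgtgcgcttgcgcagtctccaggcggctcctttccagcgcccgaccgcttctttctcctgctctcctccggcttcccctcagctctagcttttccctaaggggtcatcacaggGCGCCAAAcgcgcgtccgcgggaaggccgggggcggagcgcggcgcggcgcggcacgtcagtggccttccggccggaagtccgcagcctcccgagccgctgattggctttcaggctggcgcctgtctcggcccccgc
E2F1: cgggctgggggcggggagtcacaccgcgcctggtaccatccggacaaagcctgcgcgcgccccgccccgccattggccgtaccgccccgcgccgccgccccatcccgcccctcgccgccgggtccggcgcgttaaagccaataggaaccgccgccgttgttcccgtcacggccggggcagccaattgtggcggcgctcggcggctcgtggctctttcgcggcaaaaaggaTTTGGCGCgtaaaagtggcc
The word began 31 bases before the start of GINS2, 137 before that of POLA1 and 20 before that of E2F1. CCAAT was common to both cell cycle lists, with 64.0% of the replication and 79.3% of the mitosis genes.

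Genes of hypoxia and glycolysis lay higher in the late window, though few passed the test. Of 34 tested, 33 were detected on all 6 arrays. All late arrays lay above all early ones for 17 and below them for 1, against 19.2% and 18.9% of all genes. The median log2 difference of the 33 was 0.47. Only P4HA1 and P4HA2, the catalytic subunits of the collagen prolyl hydroxylases, rose at an adjusted p under 0.05. That was 2 of 34, next to 2.79% of all genes, and none fell, next to 1.89%. P4HA1 had 1946, 1564 and 2698 early and 4811, 6786 and 3932 late (log2 difference 1.32, SE 0.265, limma adjusted p = 0.0474). P4HA2 had 3017, 2517 and 3858 early and 6800.5, 9577 and 5404 late (log2 difference 1.20, SE 0.246, adjusted p = 0.0493). Neither gene overlapped between the windows, and both were highest at 36 h. BNIP3, a mitochondrial protein that marks mitochondria for removal, had 23854, 14099.6 and 27587 early and 51282, 61653 and 35775 late, with an adjusted p of 0.0675. EGLN1, the hydroxylase that marks HIF1A for degradation, had 933, 529 and 1194 early and 2320.2, 3459 and 1319.6 late (adjusted p = 0.0968). The glucose transporter SLC2A3 had an adjusted p of 0.0586 and LDHA, which turns pyruvate to lactate, one of 0.059. HIF1A itself lay slightly lower, with 4281, 4743 and 4219 early and 3705, 3932 and 3915 late (adjusted p = 0.213).
Relative to the early window, the median of this list stood at -0.27 and 0.20 on the 16 and 20 h arrays, at 0.65 and 0.70 between the windows, and then at 0.59, 0.97 and 0.11 on the 32, 36 and 42 h arrays. The median of the cholesterol list went from -0.03 at 20 h to -0.26, -0.31, -0.44, -0.44 and -0.53 at 24, 28, 32, 36 and 42 h. The replication list went from -0.11 to -0.29, -0.28, -0.39, -0.48 and -0.41 over the same arrays. The immediate early genes described further on also had their highest median at 36 h (0.58) and stood at -0.03 at 42 h, and the difference in course between lists was not tested. The 42 h array was the lowest of the late window in P4HA1 and P4HA2. ERO1A, the oxidase that forms disulphide bonds in the endoplasmic reticulum, was not in the list and moved likewise, with 1539.5, 1188 and 2022 early and 3655, 7907 and 4315 late (log2 difference 1.69, SE 0.326, limma adjusted p = 0.0454). Scaled to the array median, P4HA1 and P4HA2 no longer passed, and in the fit over 19 arrays in 5 groups by time 12 members of the list rose.

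**Figure D3:**
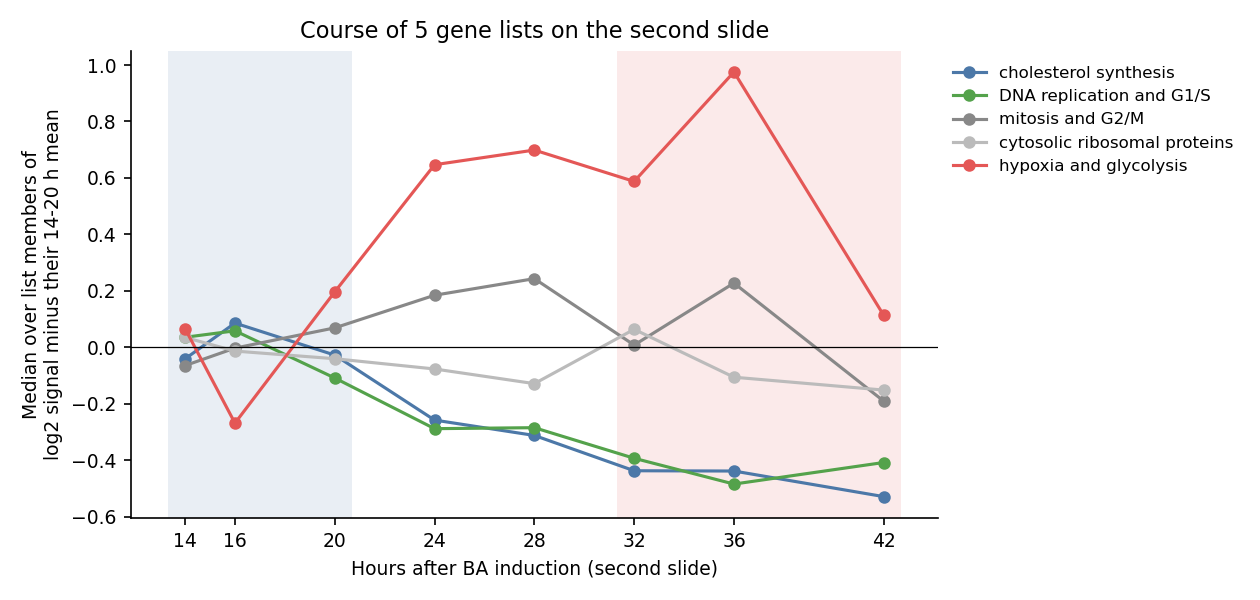
Median log2 signal of 5 gene lists relative to the 14-20 h mean against hours on the 8 arrays of the second slide (members detected on all 6 arrays of the windows, shaded blue and red). Cholesterol and replication genes go down to -0.53 and -0.41 at 42 h, hypoxia genes peak at 0.97 at 36 h, and the mitosis and ribosomal lists stay between -0.19 and 0.24.

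The hypoxia word ACGTG, on either strand, stood in the windows of 19 of 31 members (61.3%), against 21.7% of all genes. The same word stood in 34.5% of mitosis, 32.0% of replication and 22.2% of cholesterol genes. Among the called replication genes, which fell, it stood in 4 of 7. The window of P4HA1 (chr10:73096867-73097116, minus strand) is given as that of the called hypoxia member that holds the word, with its other strand in capitals.
P4HA1: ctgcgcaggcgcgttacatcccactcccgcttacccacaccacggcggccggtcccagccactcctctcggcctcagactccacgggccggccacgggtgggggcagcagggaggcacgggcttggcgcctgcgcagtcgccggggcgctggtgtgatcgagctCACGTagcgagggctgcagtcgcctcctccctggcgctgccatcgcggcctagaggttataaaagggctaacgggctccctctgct
It began 86 bases before the start. P4HA2 had no match in its window.

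In the NODAL pathway the ligand and 1 of its inhibitors fell. NODAL had 2336, 2889 and 1758 early and 853, 659.9 and 1201 late, so the windows were apart, and the log2 difference was -1.38 (SE 0.266, limma adjusted p = 0.0456). LEFTY2, an inhibitor that NODAL induces, had 2437, 3044 and 2186 early and 1222, 1322 and 1267 late and fell by 0.995 on the log2 scale (SE 0.137, adjusted p = 0.0319). LEFTY2 stood at 1770.5 at 24 h but at 2264, inside the early range, at 28 h, whereas NODAL stood at 967 and 1026 on these arrays. LEFTY1 had 8752, 12669 and 5135 early and 2577, 2303 and 5332 late, so that its 42 h array overlapped the early window and it did not pass (log2 difference -1.39, adjusted p = 0.0979). Of the 21 pathway genes tested, 2 fell and none rose, next to 1.89% and 2.79% of all genes.
The pluripotency genes did not move as a list. None of 30 passed in either direction, and 6 lay above and 4 below without overlap, against 19.2% and 18.9% of all genes. The median log2 difference of the 29 detected on all 6 arrays was 0.01. POU5F1 had 342293, 344362 and 328060.0 early and 329863, 292755 and 260314 late, with an overlap at 32 h (adjusted p = 0.269). NANOG had 17218, 22392 and 23789 early and 22646, 22897 and 21745 late (adjusted p = 0.662) and SOX2 had 29895, 33788 and 29837 early and 25477, 27340.5 and 27662 late (adjusted p = 0.196). All 7 markers of embryonic stem cells were detected on all 6 arrays, with a summed signal of 582726.5 to 620288 early and 519995 to 581060 late.
Some markers of other cells were detected. Of 6 trophoblast and amnion markers 2 (KRT7 and GABRP) were detected on all 6 arrays and none was absent from all, with a summed signal of 10331 to 13481 early and 11009 to 12254 late. Of 4 endoderm markers SOX17 and FOXA2, and of 4 mesoderm markers TBXT and MIXL1, were detected on all 6. Their summed signals were 983 to 1245 early and 585 to 808 late for endoderm and 327 to 601 early and 507 to 557 late for mesoderm. Among 10 fibroblast markers 4 were detected on all 6 arrays (COL1A1, COL1A2, THY1 and PDGFRA) and 4 on none (COL3A1, LUM, POSTN and FAP), and the summed signal was 29428 to 32353 early and 28321 to 36539 late. None of 4 brown fat markers was detected on all 6 arrays, CIDEA on none. PRDM16, a factor of the BA lineage, had 34.0, 25.7 and 36.1 early, none of them detected, and 47.1, 43.4 and 39.6 late (adjusted p = 0.117), and PPARG likewise was detected on the late arrays alone (adjusted p = 0.145). UCP1, MYF5 and CITED1 were not detected on all 3 arrays of either window and were not tested. GDF15, a secreted member of the TGFB superfamily, had 10402, 8542 and 8998 early and 21652, 27647 and 13346 late, with no overlap, but did not pass (log2 difference 1.11, adjusted p = 0.0609). KLF4 and IL6, which the study also names, did not pass either (adjusted p = 0.406 and 0.575). In lists of germ layers and their derivatives few genes passed. FOXA2, an endoderm factor, fell by 0.82 on the log2 scale, with 217, 263 and 238 early and 129, 123 and 156 late. HAND1, a mesoderm and trophoblast factor (64.1 to 71.0 late), and the neural factor OTX1 (31.0 to 36.6 late) were detected on the late arrays alone and passed, but these signals lie under the limit of the 14 h array, and those of OTX1 under the limits of all early arrays, so no rise is read from them. TEK, the receptor of angiopoietins, had 957, 933 and 866 early and 556, 621 and 496 late and fell by 0.72, and ANGPT1, its ligand, had 182, 306 and 232 early and 75.8, 106 and 94.3 late and fell by 1.37. Both members of this pair were apart between the windows.

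Among genes detected on all 6 arrays at an adjusted p under 0.05, the largest rise was that of LOX, the oxidase that cross-links collagen and elastin. LOX had 327, 198 and 509 early and 1124, 2107 and 1082 late, a log2 difference of 2.09 (SE 0.4, limma adjusted p = 0.0452). It stood at 1226 and 1777 at 24 and 28 h, already at its late level. LOX and ERO1A each had a spot whose neighbours were shifted by at least 0.5 (log2) on 1 or more of the 6 arrays. TXNIP, an inhibitor of thioredoxin and of glucose uptake, had 1445, 1753 and 2333 early and 5270.1, 5859.5 and 3909 late (log2 difference 1.45, SE 0.222, adjusted p = 0.0336), although the spots around it were raised at 16 and 20 h. ICAM1, an adhesion molecule for white blood cells, had 132, 135 and 264 early and 514, 517 and 568 late (log2 difference 1.67). In these genes the 20 h array was the highest of the early window. MVP, the main protein of vault particles, had 1976, 1335 and 3298 early and 7448, 7600.3 and 5336 late (log2 difference 1.71). SSTR1, a somatostatin receptor, was even within the early window, with 245, 251 and 279, and had 611, 870.4 and 741 late (log2 difference 1.51, SE 0.146, adjusted p = 0.0249). The largest rises also held MEIOB (1.91), a meiosis gene, SYNPR (1.72), ERO1A, the potassium channel KCNN4 (1.48), the noncoding RNA PURPL (1.45), SERPINI1 (1.44), OVGP1 (1.43), RESP18 (1.42) and TRIM4 (1.36). For TRIM4 the 2 probes tested disagreed in sign.
The largest fall among such genes at an adjusted p under 0.05 was that of WFDC21P, with 769, 739 and 397 early and 142, 132 and 211 late (log2 difference -1.95, SE 0.302, limma adjusted p = 0.0343). AFP, the fetal serum protein made by yolk sac and liver, had 1609, 1683 and 2339 early and 575, 529.5 and 523 late (log2 difference -1.77, SE 0.158, adjusted p = 0.0249). It was highest at 20 h and at 877 by 24 h. MAT2A, which makes S-adenosylmethionine, the methyl donor of the cell, had 26315, 22676 and 14605 early and 7654, 7654 and 9541 late (log2 difference -1.32). SLC7A5, a transporter of large neutral amino acids, had 7639, 7398 and 6697 early and 3658, 3192 and 2803 late (log2 difference -1.18, SE 0.125, adjusted p = 0.0289). The late values of both lay under all early ones. The thrombin receptor F2RL2 fell by 1.86 on the log2 scale, the metalloproteinase ADAM19 by 1.44, the serine protease PRSS23 by 1.35, CRYGB by 1.35, TM4SF1 by 1.27, MYL7, a myosin light chain of the heart atrium, by 1.23, the plasminogen activator PLAT by 1.18 and FOXQ1 by 1.16. PLAT had neighbouring spots raised at 14 h.
Some genes were detected in 1 window alone and have only a bound, taken against the lowest signal detected on each array of the dim window or the probe's own signal where that was higher. MAB21L4, with 138, 232 and 129.7 late, was at least 2.92-fold higher, CES1P1 at least 2.32-fold, MYCT1 at least 2.01-fold, LTB at least 1.96-fold and LRRC66 at least 1.85-fold. The late signals of 65.3 and 82.4 of CES1P1 lie under the limit of the 14 h array (86.5), so no rise is read from CES1P1. For MYCT1 the late signal of 83.0 lies under that limit as well. In the other direction LINC00668 was at least 5.54-fold lower and OR9Q2 at least 3.32-fold lower. LINC00668 had 190.3, 204, 102 and 141 at 14, 16, 20 and 24 h and 5.65 to 7.29 from 28 to 42 h. OR9Q2 had 189, 96.7, 46.7 and 223 on the first 4 of these arrays and 5.79 to 20.6 on the others. Both were thus high on the 4 arrays of the first row of the slide and dim on the 4 of the second row, and at 10 and 12 h both had lain between 5.47 and 7.69. Their spots lie 5 rows and 1 column apart, and the spots around LINC00668 were raised by 0.66 at 14 h and by 0.67 at 20 h on the log2 scale. The part of the row and of the neighbouring spots in these 2 falls was not tested.

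Stress and early response genes moved singly. Of 28 p53 targets tested, 2 were called higher, CDKN1A only through the late arrays, and 1 fell, next to 2.79% and 1.89% of all genes. Among them 6 lay above and 4 below without overlap, against 19.2% and 18.9% of all genes. CDKN1A, the p53 target that halts the cell cycle, was detected on the late arrays alone. It had 38.2, 22.5 and 34.6 early and 64.9, 116 and 79.3 late. Its bound of at least 1.53-fold was taken against the lowest signals detected on the early arrays. The late signals of 64.9 and 79.3 lie under the limit of the 14 h array (86.5). That of 64.9 also lies under the limit of the 16 h array (66.1). Only the signal of 116 lies above the limits of all early arrays, so no rise is read from CDKN1A. BTG2, an antiproliferative gene, had 1147, 1011 and 1046 early and 1579.8, 1595 and 1474 late (log2 difference 0.54, SE 0.0928, limma adjusted p = 0.0398), and TP53I3 fell by 0.63. Of 28 immediate early genes, EGR1 and BTG2 rose and none fell, next to 2.79% and 1.89% of all genes. Without overlap, 10 lay above and none below, against 19.2% and 18.9% of all genes. The median of the immediate early genes detected on all 6 arrays was 0.26. EGR1, a factor induced by growth signals, had 1937, 2183 and 2286 early and 3969.8, 5058 and 3981 late (log2 difference 1.02, SE 0.132, adjusted p = 0.031). Of 30 targets of ATF4, STC2 rose by 0.80 and SLC7A5 fell, next to 2.79% and 1.89% of all genes. HSPA5, the main chaperone of the endoplasmic reticulum, rose by 0.49. It was the only 1 that passed of 21 listed chaperones and related genes, next to 2.79% of all genes that rose and 1.89% that fell. In limma no gene passed in either direction among 21 heat shock genes, 22 NRF2 targets and 18 IL6 and STAT3 response genes. The same held for 21 genes of fatty acid and triglyceride synthesis, 12 metallothioneins and related genes, and 33 respiratory chain genes. It also held for 35 cytosolic ribosomal proteins, 22 housekeeping genes and 11 genes of muscle precursors and brown fat. The list of metallothioneins, which bind zinc, also held MTF1 and SLC30A1 and had a median log2 difference of -0.44. Of the NRF2 targets 7 lay below without overlap and none above, against 18.9% and 19.2% of all genes.
Few genes of adhesion and matrix passed the test. Fibronectin, FN1, had 208, 236 and 239 early and 340.3, 316 and 404 late (log2 difference 0.63), and CDH11, a cadherin of mesenchymal cells, had 79.4, 74.1 and 97.3 early and 139, 147 and 197 late (log2 difference 0.94). CDH11 was detected on 2 of the 3 early arrays and passed the filter through the late window. FN1 and CDH11 were the 2 that rose of 19 genes of the epithelial to mesenchymal transition, next to 2.79% of all genes. None of the 19 fell. Of 29 collagens, laminins and integrins 1 rose (FN1) and 1 fell (ITGB5, by 0.57), next to 2.79% and 1.89% of all genes. Of 9 fibroblast genes tested, TAGLN and ACTA2, which encode proteins of the contractile cytoskeleton, fell by 0.75 and 0.57 and none rose. That was 2 of 9, next to 1.89% of all genes. Of 21 WNT targets and antagonists, the antagonist WIF1 fell by 0.41 on the log2 scale. WNT11, a ligand of the planar polarity branch, also passed, but it was tested only through the late arrays (41.5 to 61.8), whose signals lie under the limits of the 14 and 16 h arrays, and no rise is read from it. Apart from HAND1 no gene passed among 18 BMP and SMAD1 response genes or 17 trophoblast and amnion genes, and apart from OTX1 none among 12 neuroectoderm genes. FOXA2 was the 1 gene that passed among 17 of the primitive streak and endoderm and TEK among 16 of blood and endothelium, and both fell.

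The course between the windows is a description of the called genes. Their call required a small spread within each window, so that their largest steps had to lie mostly between 20 and 32 h. Of the 272 rising genes detected on all 8 arrays of the slide, 257 (94.5%) had their mean at 24 and 28 h between the 2 windows, as did 270 of 291 falling genes (92.8%). The median share of the change reached at 24 and 28 h was 64.7% for rising and 60.0% for falling genes. The 24 h array lay in the same row of the slide as the early arrays, and there the median share was already 64.5% and 55.4%. The largest step between neighbouring arrays fell between 20 and 24 h for 94 rising and 102 falling genes and between 28 and 32 h for 88 and 102. Between 24 and 28 h, where the row of the slide changed, it fell for 12 and 38. Row and window cannot be told apart, and the part of the row in these steps was not tested. On the third slide, at 48 and 54 h, 269 of the rising and 283 of the falling genes lay past the midpoint of their change, and 204 and 232 lay beyond the late window. The median share was 126% and 129%, but the slide and the time cannot be told apart there. On the first slide, from 3 to 12 h, 271 falling and 197 rising genes lay on the early side of the midpoint. The cholesterol list stood at a median of -0.86 at 48 and 54 h relative to the early window, the replication list at -0.53 and the hypoxia list at 0.33.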

How the data were processed

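The authors hybridised Cy3-labelled RNA of 19 time points to one-colour Agilent human arrays and deposited, per array, the Feature Extraction 10.10.1.1 output, in which the processed signal of each spot is a background-subtracted intensity without scaling between arrays. The flags of 0 or 1 used here are as the authors deposited them. A second deposited table of intensities, equal to the processed signal times 1 factor per array, served as an alternative. Flagged spots (0.632%) were left out, spots of a probe averaged, and log2 signals scaled by subtracting the 75th percentile of each array. Probes detected (well above background) on all 3 arrays of at least 1 window were tested with limma 3.58.1 in R 4.3.3 (2 groups of 3 arrays, lmFit and eBayes, two-sided, Benjamini-Hochberg over 29194 probes, adjusted p under 0.05). Of 50683 probes, 28174 matched 20503 symbols through RefSeq accessions (GRCh38.p14), and a gene is its probe with the highest mean over 19 arrays. The fit was tested on simulated data. Spots around a spot are the 20 within 3 rows and 1 column. The number of arrays limits the precision, and values close to the limit of detection carry more error. Promoter windows are from a RefSeq table of GRCh38.p14. Python 3.11.15 was used for tables and figures.

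The windows, the 29 gene lists and the rule for named genes were chosen with earlier results of these data known. The genes named are the 15 largest rises and falls detected on all 6 arrays, up to 5 bounded genes a direction, the called list members and described lists, and genes the study names, some of which are not reported here. Lists of pathways, cell types and control genes are given with their counts in the text. Alternatives were other scalings, normexp (offset 50), the deposited table, other filters, trended priors, larger fits, other windows, gene means, other fold thresholds and each array left out. The 17-array fit without 14 and 16 h, leave-one-out in the 19-array fit and the removal of probes with shifted neighbours were chosen after seeing the data. Of the listed genes, CGB5, XAGE2, AKR1C2, ALDOA, UBE2C and NDUFA4 were not matched to a probe.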

Additional observations from a re-analysis of the deposited data

How the results depend on the processing

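The calls depend on small spreads among 3 arrays a window, and signals near the detection limit of the 14 and 16 h arrays are the least certain. All 741 called genes kept their direction under the scalings to the median, to detected probes and to the spike-in RNA, under quantile normalization, the trended prior and the fits over 8 or 19 arrays, and 1 turned under normexp, with 20 and 24 h as the early window, and with gene means. Among the alternatives run for single named genes, 1236 values stayed on the same side of the threshold, 724 lost the call and 10 gained it. No called value changed sign, whereas some that were not called did, NANOG, KLF4 and IL6 among them. The main counts were 945 probes higher, 453 lower, 159 genes 2-fold higher, 31 2-fold lower, 10 cholesterol and 11 replication genes lower and 2 hypoxia genes higher. Scaling to the array median gave 612 probes higher and 0 hypoxia genes, scaling to the 75th percentile of detected probes 1432 probes higher, and scaling to the spike-in RNA 315 probes higher, 202 genes 2-fold lower and 1 hypoxia gene. Quantile normalization gave 431 probes higher, 222 lower, 79 genes 2-fold higher, 6 cholesterol, 4 replication and 0 hypoxia genes. Normexp gave 698 probes lower, 41 genes 2-fold higher, 19 2-fold lower and 9 hypoxia genes. The deposited table gave 69 genes 2-fold higher and 6 hypoxia genes, and the filter on all 6 arrays 720 probes lower, 67 genes 2-fold higher and 6 hypoxia genes. With no filter limma called 0 probes and 0 genes or list members, with 14895 probes at an unadjusted p under 0.05. The trended and robust prior gave 1768 probes higher, 1374 lower and 7 hypoxia genes, 8 arrays with 24 and 28 h as a group of their own 1950 higher, 917 lower and 7, 19 arrays in 5 groups 1887 higher, 1248 lower and 12, and a slope over 8 arrays 1735 higher, 931 lower and 0. With 20 and 24 h as the early window limma called 0 probes higher, 5 lower, 0 genes 2-fold higher, 1 2-fold lower and 0 members of each of the 3 lists (3123 probes at an unadjusted p under 0.05). Without both the 14 and 16 h arrays, in the added fit over 17 arrays, it called 35 probes higher, 101 lower, 13 genes 2-fold higher and 0 members of each of the 3 lists (2606 at an unadjusted p under 0.05). A threshold of 1.5-fold gave 377 genes higher and 178 lower, and one of 4-fold 8 and 3. With each array left out in turn, in both kinds of fit, probes higher ranged from 0 to 2082, probes lower from 0 to 1233, genes 2-fold higher from 0 to 335, genes 2-fold lower from 0 to 81, cholesterol genes from 0 to 13, replication genes from 0 to 16 and hypoxia genes from 0 to 16. Within the added leave-one-out runs of the fit over 19 arrays in 5 groups these ranges were 662 to 2082, 336 to 1233, 108 to 335, 24 to 81, 5 to 13, 8 to 16 and 7 to 16. The share of called probes that rose was 67.6%, and 47.9% with the array median, 32.5% with the spike-in RNA, 55.5% with the filter on all 6 arrays, 56.3% with the trended prior and 25.7% without 14 and 16 h. The cause of these changes was not tested. No paired analysis was possible because the arrays of the 2 windows share no culture, litter or number in the labels.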
